A study of Mus musculus with 8 samples.

Results

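The dorsoventral neural tube factors examined here are 10 homeodomain or paired-domain transcription factor genes, Pax3, Pax6, Pax7, Msx1, Msx2, Nkx6-1, Nkx6-2, Nkx2-2, Irx3 and Irx5. They were chosen by name and matched by symbol to the deposited tables, where all 10 were found among 20512 named genes with exon values and among 18655 named genes with intron values. RNA was measured in the embryonic stem cell (ESC) line F1-21.6, a mouse hybrid with the background 129Sv-Cast/EiJ, and in neural progenitor cells (NPC) made from it by differentiation. The ESC were kept with leukaemia inhibitory factor and serum on a layer of mouse embryonic fibroblasts whose division had been stopped with mitomycin C. The NPC were a single clone, so both cell types come from 1 line and the NPC values describe 1 clone. Whether chromosome numbers differ between them was not tested. Each cell type had 2 biological replicates with 2 technical libraries each, which gives 8 libraries of ribosomal-RNA-depleted total RNA read as 50 bp single ends.

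In the embryonic neural tube, progenitors are arranged in stripes from the roof plate on the dorsal side to the floor plate on the ventral side. Bone morphogenetic proteins (BMPs) and Wnt proteins from the roof plate and Sonic hedgehog from the floor plate set up these stripes, and each stripe is recognised by the combination of transcription factors it holds. Msx1 and Msx2 mark the roof plate and the dorsal-most progenitors, Pax3 and Pax7 the dorsal part, Pax6, Irx3 and Irx5 a broad middle part that reaches into the dorsal tube, Nkx6-1 and Nkx6-2 the ventral part, and Nkx2-2 the progenitors next to the floor plate. Several of these factors repress each other across stripe borders, for example Pax6 and Nkx2-2. The comparison asks which of these domains the NPC clone resembles.

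Exon levels are the authors' values in RPKM, a read count scaled by transcript length and by library depth. The authors gave 1 pooled value per cell type, so exon levels come with no spread between replicates. Intron levels, in the same unit, exist for each biological replicate. Their denominators were inferred from the values, as 5767704 and 6500767 reads in ESC and 5792056 and 5186790 reads in NPC. The intron reads recovered with them were more in every replicate (6210642 and 6997645 in ESC, 6115541 and 5533447 in NPC). The denominators are thus no full library depth, and all intron read numbers given below are inferred too. To show what level a silent gene can have, 1461 olfactory, vomeronasal and taste receptor genes were used. Their 95th percentile was 0.0830 exon RPKM in ESC and 0.797 in NPC, so low values mean less in NPC. A gene at that NPC level (Tagln, 0.797 RPKM) stood above 40.0% of all named genes, so most named genes pass it in NPC. In introns, 240 such genes had a 95th percentile of 0.283 and 0.0904 RPKM in ESC and 1.53 and 0.458 in NPC replicates 1 and 2. NPC replicate 1 thus stood apart with a high intron background, and each intron result that rests on it is given beside NPC replicate 2.

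In the NPC clone, the exon levels of the 10 factors formed an upper set of 5 and a lower set of 5. Pax6 was at 42.6 RPKM, Irx5 at 19.5, Pax7 at 15.1, Irx3 at 10.2 and Pax3 at 1.53, all above the receptor percentile of 0.797. Nkx2-2 at 0.557, Msx2 at 0.503, Msx1 at 0.463, Nkx6-1 at 0.142 and Nkx6-2 at 0.0352 were all below it. In ESC the order was different. There Nkx6-2 was the highest at 3.14 RPKM, followed by Msx2 at 1.91, Pax6 at 1.81 and Irx5 at 1.52, and none of the 10 reached 5 RPKM. Because the exon values are pooled, whether neighbours in either order differ beyond replicate error cannot be said.

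**Figure D1:**
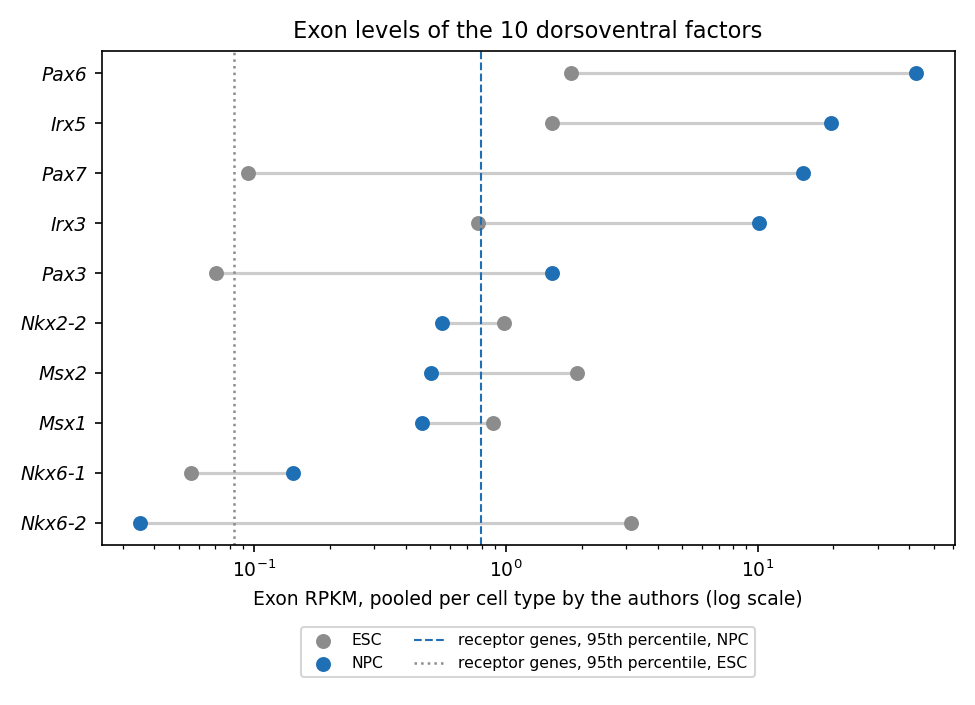
Exon level of each factor in ESC (grey) and NPC (blue), in RPKM on a log axis; each point is the authors' pooled value for a cell type and has no error bar. The dashed and dotted lines are the 95th percentile of receptor genes in NPC (0.797) and in ESC (0.0830); Pax6, Irx5, Pax7, Irx3 and Pax3 lie to the right of the NPC line in NPC, and the other factors lie to its left.

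Of the 6 factors whose mean over the cell types reached 1 RPKM, the authors' deposited table called 4 higher in NPC (Pax6, Pax7, Irx3 and Irx5) and 1 lower (Nkx6-2) at an adjusted p under 0.05, and Msx2 was not called. Over all 12509 genes with such a mean, 32.3% were called higher and 33.9% lower. The median log2 fold change of these 6 factors in the authors' deposited table was 3.52, and that of all 12509 genes was -0.07. Some of the 6, such as Pax7 and Nkx6-2, passed the filter only through the cell type where they are high. A median far from 0 is thus partly built in, and with no filter that of all 10 factors was 2.14. With no filter on level, the authors' deposited table called 5 of the 10 higher (Pax3 in addition) and 1 lower, against 25.8% higher and 24.2% lower of 18162 genes. Nothing particular to these factors is read from the counts, since they were chosen with earlier results known. In bulk RNA, fewer cells of a kind and less RNA per cell cannot be told apart, and whether any of these factors share a cell is not resolved.

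Promoter sequences are shown for 4 factors whose responses differ: Pax7 and Irx3, which rose, Nkx6-2, which fell, and Nkx6-1, which was near background in both cell types. Each runs 5′ to 3′ on the gene's strand from 250 bases before to 50 bases after a start site of RefSeq on GRCm38.p6, a later build than the mm9 build of the deposited values. Capitals mark every CpG, the dinucleotide that is methylated in mammalian DNA and is kept in CpG islands. The windows are chr4:139832919-139833218 for Pax7, chr8:91801605-91801904 for Irx3, chr7:139582748-139583047 for Nkx6-2 and chr5:101664662-101664961 for Nkx6-1, all on the minus strand.
Pax7: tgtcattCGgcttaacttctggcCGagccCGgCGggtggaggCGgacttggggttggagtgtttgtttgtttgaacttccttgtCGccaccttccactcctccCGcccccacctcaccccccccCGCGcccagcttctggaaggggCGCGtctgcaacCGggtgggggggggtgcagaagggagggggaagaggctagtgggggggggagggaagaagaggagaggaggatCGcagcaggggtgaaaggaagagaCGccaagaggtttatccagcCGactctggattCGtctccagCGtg
Irx3: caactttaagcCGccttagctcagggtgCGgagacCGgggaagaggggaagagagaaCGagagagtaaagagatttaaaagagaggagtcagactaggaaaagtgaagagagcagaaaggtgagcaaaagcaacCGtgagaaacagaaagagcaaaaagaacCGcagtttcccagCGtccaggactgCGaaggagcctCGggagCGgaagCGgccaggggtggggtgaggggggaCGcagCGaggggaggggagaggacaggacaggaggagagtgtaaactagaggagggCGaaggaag
Nkx6-2: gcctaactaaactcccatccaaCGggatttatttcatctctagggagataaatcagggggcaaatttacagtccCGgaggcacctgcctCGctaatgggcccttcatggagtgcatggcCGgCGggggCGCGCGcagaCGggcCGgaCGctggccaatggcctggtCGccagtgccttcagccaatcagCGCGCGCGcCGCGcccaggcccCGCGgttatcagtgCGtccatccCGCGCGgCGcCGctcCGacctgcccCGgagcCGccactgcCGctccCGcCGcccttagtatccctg
Nkx6-1: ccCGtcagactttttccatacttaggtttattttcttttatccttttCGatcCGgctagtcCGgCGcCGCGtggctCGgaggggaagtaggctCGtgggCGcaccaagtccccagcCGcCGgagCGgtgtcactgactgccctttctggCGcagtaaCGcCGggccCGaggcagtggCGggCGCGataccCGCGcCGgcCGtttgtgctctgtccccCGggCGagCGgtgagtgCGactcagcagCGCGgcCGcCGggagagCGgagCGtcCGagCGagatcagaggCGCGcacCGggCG

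The Nkx6-1 window holds 40 CpGs and the Nkx6-2 window 32, more than 96.1% and 90.5% of 32851 mouse promoter windows of the same length, whose median was 7. The Pax7 window holds 17 and the Irx3 window 14, more than 68.6% and 63.7% of all windows. A RefSeq window was matched for 8 of the 10 factors. The others had 29 CpGs (Msx1), 22 (Msx2), 17 (Nkx2-2) and 18 and 16 (the start sites of Pax6), so every matched factor lay above the median of all promoters, whether its RNA was high or low in NPC. On either strand, the homeodomain core TAATTA was found only in the Msx2 window (5.29% of all windows hold it), the Gli-type motif TGGGTGGTC in none of the 8 (0.253%), the TATA box letters TATAAA in none (13.6%), and the E-box CATCTG only in the Nkx2-2 window (17.2%). These matches describe letters in a window, and none of the 4 motifs contains another.

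Among the dorsal factors, Pax7 had the largest response and Pax3 a weak one. Pax7, a paired-box factor of the dorsal neural tube and midbrain that is also known from neural crest and muscle stem cells, lies on chromosome 4 with its start site at 139388883 (mm9). Its exon level was 0.0946 RPKM in ESC and 15.1 in NPC. The log2 fold change in the authors' deposited table was 7.10 (adjusted p = 1.69e-46), a 137-fold difference, but the ESC value lay close to the receptor percentile of 0.0830, so the size of this fold rests on a level near background. As a log2 ratio of the exon RPKM with 1 RPKM added to each, the difference was 3.88. In introns Pax7 had 0.0536 and 0.00509 RPKM in ESC replicates 1 and 2 (28 and 3 reads) and 0.964 and 1.02 RPKM in NPC replicates 1 and 2 (506 and 480 reads). Both NPC replicates were above both ESC replicates and close to each other, at 0.993 ± 0.0404 RPKM (SD, n = 2). The value of NPC replicate 1 was above 73.3% of receptor genes in that replicate, and the value of NPC replicate 2 above 99.6%.

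Pax3, the closest paralog of Pax7, which acts with it in dorsal progenitors and the neural crest, lies on chromosome 1 (start site 78193711, mm9). Its exon level was 0.0704 RPKM in ESC and 1.53 in NPC, which was above 99.7% of receptor genes in NPC. The authors' deposited table gave a log2 fold change of 4.08 (adjusted p = 1.31e-07), although the mean level of 0.798 RPKM was under the filter and the ESC value was below the receptor percentile. With 1 RPKM added to each value, the log2 ratio for Pax3 was 1.24. In NPC, the Pax7 level was 9.93 times that of Pax3 in exon RPKM, a unit that divides by transcript length. In introns Pax3 was at 0.166 and 0.0159 RPKM in ESC and at 1.21 and 0.249 RPKM in NPC (74, 8, 540 and 100 reads). The groups did not overlap, but each replicate 1 was higher than its replicate 2 as the receptor background was, and the NPC values were above 88.8% and 86.7% of receptor genes of their own replicate.

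Pax6 was the highest of the 10 factors in NPC and the only one with enough intron signal for the planned test. It is a paired-box and homeodomain factor of neural progenitors along most of the neural tube and of the eye and pancreas, and lies on chromosome 2 (start site 105509053, mm9). Its exon level was 1.81 RPKM in ESC and 42.6 in NPC, and the log2 fold change in the authors' deposited table was 4.38 (adjusted p = 1.72e-54). In introns it had 0.278 and 0.204 RPKM in ESC (29 and 24 reads) and 2.83 and 4.75 RPKM in NPC (296 and 445 reads). Every NPC value was above every ESC value, and NPC replicate 2, the one with the lower background, held the higher value. As log2(RPKM + 1), a scale on which low genes seem to change less, Pax6 introns rose by 1.92 (SE 0.22, limma, Benjamini-Hochberg adjusted p = 6.29e-05, n = 2 and 2). In that test 13.2% of 8811 genes were called higher and 34.0% lower, the median log2 fold change was -0.43, and with the columns centred on their medians the rise of Pax6 was 2.32. The antisense transcript Pax6os1, whose start site is 1.43 kb away, was at 0.0446 and 0.738 RPKM, and since no source used here says whether counting used strand, its reads and those of Pax6 may not be told apart.

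The Iroquois homeobox genes Irx3 and Irx5 rose together in the exon values. Irx3 represses Olig2 across the border between the p2 and motor neuron progenitor domains, and Irx5 is its neighbour in the same cluster. Both lie on chromosome 8, at 94325273 and 94881695 (mm9), with their start sites 556 kb apart. Irx3 had an exon level of 0.771 RPKM in ESC and 10.2 in NPC, and Irx5 one of 1.52 and 19.5. In the authors' deposited table each had a log2 fold change of 3.52 (adjusted p = 3.44e-11 for Irx3 and 3.18e-19 for Irx5). Genes of chromosome 8 had a median log2 fold change of -0.52, the lowest of the chromosomes that hold the factors, and relative to it both changed by 4.04. The third gene of this cluster, Irx6, had exon levels of 0.0299 and 0.163 RPKM in ESC and NPC, below the receptor percentile in both. Crnde, a long noncoding RNA that starts 1.68 kb from Irx5, was at 1.87 and 4.77 RPKM with an adjusted p of 0.189 in the authors' deposited table. Its introns were at 1.09 and 1.14 RPKM in ESC and 1.97 and 2.74 in NPC, and these were called higher (log2 fold change 0.65, limma adjusted p = 0.0169, n = 2 and 2). The introns of both factors were too short to add to this: Irx3 had 4 and 0 reads in ESC and 4 and 6 in NPC, and Irx5 had 3 and 0 in ESC and 2 and 2 in NPC. With introns of this length, 3 reads correspond to 0.370 RPKM for Irx3 and 0.460 RPKM for Irx5 in NPC replicate 2, so a difference in introns was not detectable at this depth.

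The ventral factors were low in the NPC clone. Nkx6-2, which acts with Nkx6-1 in ventral progenitors and later in oligodendrocytes, lies on chromosome 7 (start site 146768696, mm9). Its exon level was 3.14 RPKM in ESC and 0.0352 in NPC, the lowest of the 10 there, and its log2 fold change in the authors' deposited table was -6.08 (adjusted p = 1.11e-07). The NPC value of Nkx6-2 was above only 7.73% of receptor genes, so the size of this fold also rests on a background level, and with 1 RPKM added to each value the log2 ratio was -2.0. In introns it had 1.26 and 0.609 RPKM in ESC (11 and 6 reads) and 0.570 and 0 RPKM in NPC (5 and 0 reads). Both NPC values were below both ESC values, on few reads, and 0 reads in NPC replicate 2 allow a level of up to 0.382 RPKM (3 reads), an interval for counting error only.

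Nkx6-1, required with Nkx6-2 for ventral progenitors and also known from pancreatic beta cells, lies on chromosome 5 (start site 102093730, mm9). Its exon level was 0.0561 RPKM in ESC and 0.142 in NPC, both below the receptor percentile of their cell type, and the authors' deposited table did not call it (log2 fold change 0.76, adjusted p = 0.761). Its intron values were 0.140 and 0.0827 RPKM in ESC and 0.835 and 0.207 in NPC, from 3, 2, 18 and 4 reads. The NPC values were above the ESC values, and both were below the receptor percentile of their own NPC replicate. Nkx2-2, the factor of the p3 domain next to the floor plate, lies on chromosome 2 (start site 147012138, mm9) and was at 0.979 exon RPKM in ESC and 0.557 in NPC. The authors' deposited table gave it a log2 fold change of -0.80 (adjusted p = 0.50). Its introns held 5 and 2 reads in ESC and 1 and 0 in NPC, or 0.721 and 0.256 RPKM against 0.144 and 0. Its antisense neighbour Nkx2-2os, with a start site 2.32 kb away, was at 0.0424 and 0.489 exon RPKM, so neither transcript of the pair rose above the receptor percentile in NPC.

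The Msx genes, homeobox targets of BMP signalling in the roof plate and neural crest, were at background level in NPC. Msx1 on chromosome 5 (start site 38215824, mm9) was at 0.885 exon RPKM in ESC and 0.463 in NPC, with a log2 fold change of -0.94 in the authors' deposited table (adjusted p = 0.495). Msx2 on chromosome 13 (start site 53568149, mm9) was at 1.91 and 0.503, with a log2 fold change of -2.14 in the authors' deposited table (adjusted p = 0.0643), which misses the threshold. Introns of Msx1 were at 0.721 and 0.142 RPKM in ESC and 0.479 and 0 in NPC, so that the groups overlapped. Introns of Msx2 were at 0.417 and 0.370 in ESC and 0.277 and 0 in NPC, with no overlap, on 9, 9, 6 and 0 reads. The ESC samples were grown on fibroblasts. Of 15 fibroblast genes with values the authors' deposited table called 9 lower and 2 higher in NPC. Of all 12509 genes it called 33.9% lower and 32.3% higher. The summed levels of the fibroblast genes were 107 RPKM in ESC and 34.3 in NPC. What part feeder cells had in the ESC levels of Msx1, Msx2 and Nkx6-2 was not tested.

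**Figure D2:**
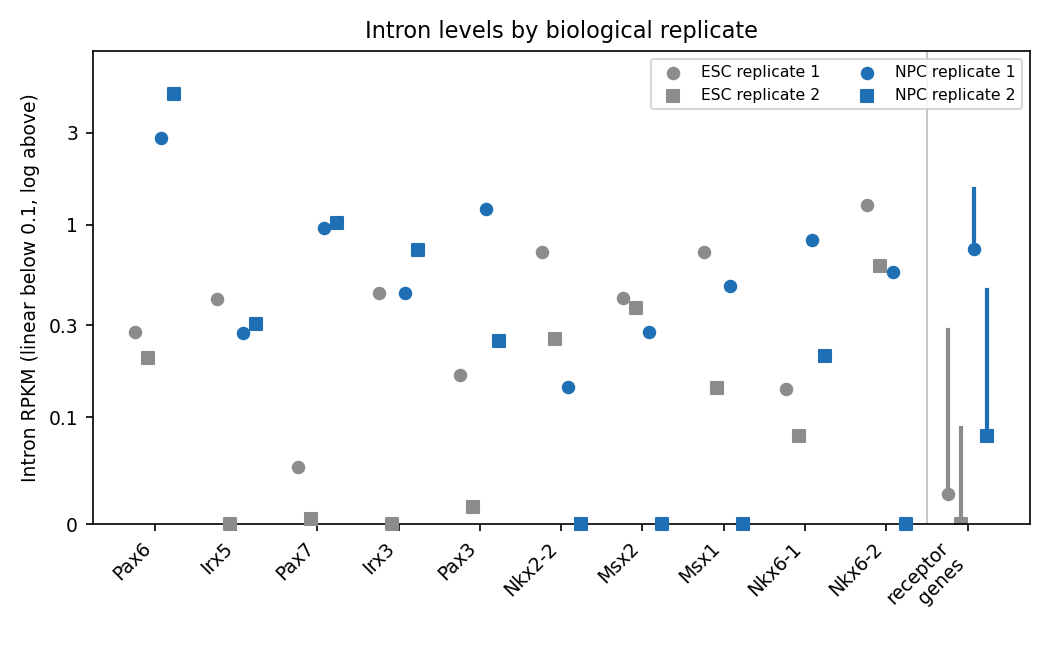
Intron level of each factor in every biological replicate of ESC and NPC, in RPKM. The NPC points of Pax6 (2.83 and 4.75) and Pax7 (0.964 and 1.02) lie above all ESC points of the same gene, while the short-intron genes rest on few reads and scatter near 0.

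The levels were then set against the textbook code of 5 progenitor domains, using the 6 factors whose presence in each domain is clear (Pax3, Pax7, Pax6, Irx3, Nkx6-1 and Nkx2-2) and calling a factor on where its NPC exon level was above the receptor percentile of 0.797 RPKM. The NPC clone matched dorsal progenitors below the roof plate at 6 of 6 factors, p0 and p1 at 4, p2 at 3, the motor neuron progenitor domain (pMN) at 2 and p3 at 0. The p0 and p1 code was missed at Pax3 and Pax7. This order rests on the weakly expressed Pax3: with an on-level of 2 or 5 RPKM, levels chosen after seeing the data, dorsal progenitors and p0 and p1 each matched at 5 of 6. Scored in the same way with its own percentile, ESC, which are no neural cells, matched dorsal progenitors at 4, p0 and p1 at 4, p2 at 3, and pMN and p3 at 2 each, so a match of 4 was also reached by cells outside the neural lineage.

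The factors of other lists did not all follow this code. Across 25 progenitor factors ordered from dorsal to ventral, 8 were above the receptor percentile in NPC, a level that most named genes pass. Above it were 0 of 3 of the roof plate, 2 of 9 of the dorsal tube (Pax3 and Pax7) and 4 of 5 of the middle part (Dbx2, Irx5, Irx3 and Pax6). So were 1 of 6 ventral (Olig2) and 1 of 2 of the floor plate (Foxa2). Foxa2, at 1.43 RPKM, was not called in the authors' deposited table (adjusted p = 0.163). By its own lower percentile of 0.0830, ESC had 19 of the 25 above, and the share of all named genes above that level was not computed. These were 3 of the roof plate, 6 dorsal, 4 of the middle part, 5 ventral and 1 of the floor plate. By this count the middle part held 4 of 5 in both cell types. Olig2, the factor that defines pMN and the oligodendrocyte lineage and that Irx3 represses in the embryo, was the highest of the 25. It was at 0.686 exon RPKM in ESC and 448 in NPC, 10.5 times the level of Pax6, and its log2 fold change in the authors' deposited table was 9.18. Its introns had 0 and 0.223 RPKM in ESC and 121 and 283 in NPC. Olig2 is not 1 of the 10 factors and was not among the 6 scored. At its NPC level it would count as on, a match to pMN and a miss for dorsal progenitors. The match of dorsal progenitors at 6 of 6 thus holds for the scored factors only. In the textbook code it goes with Nkx6-1 and without Irx3 and Pax7, whereas in the NPC clone it stood beside both of these and with Nkx6-1 at background level.

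**Figure D3:**
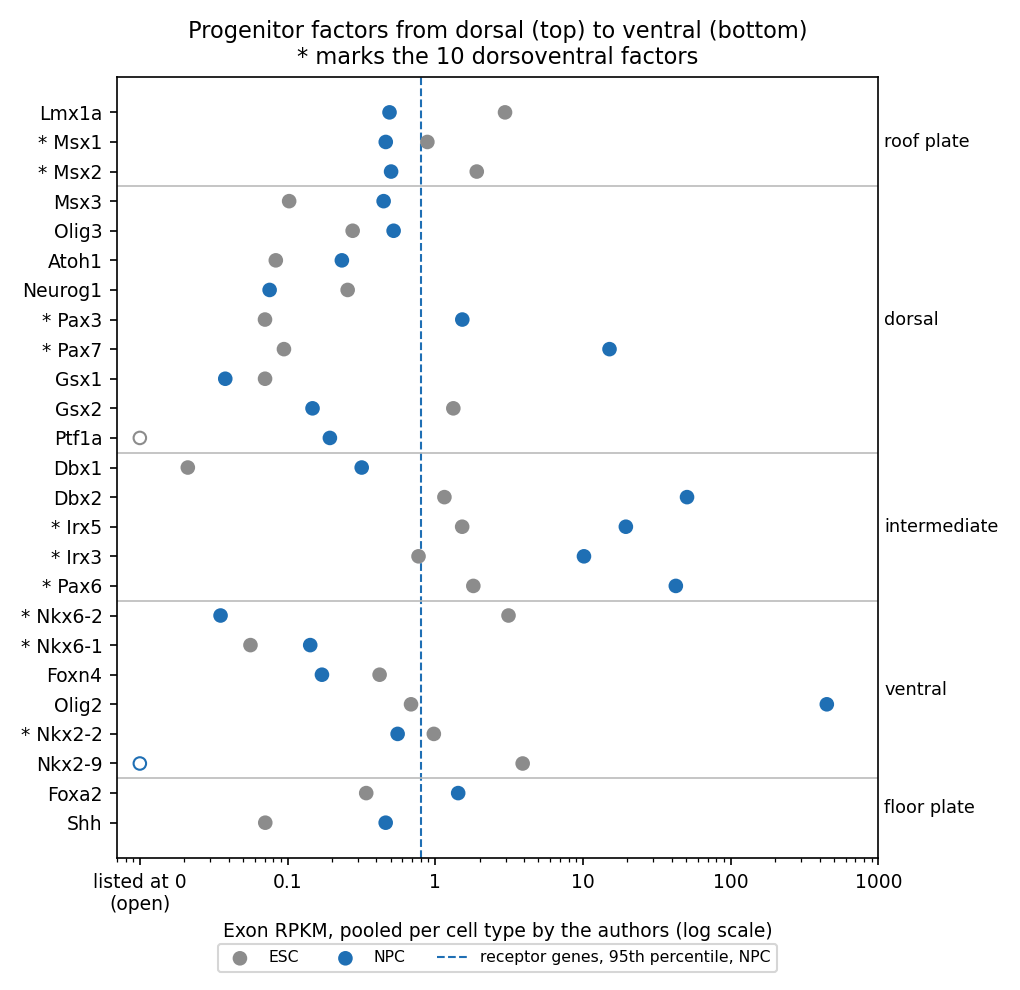
Exon level in ESC (grey) and NPC (blue) of 25 progenitor factors in textbook order from roof plate to floor plate, in RPKM on a log axis, with the 10 factors starred and genes listed at 0 drawn open. The dashed line is the 95th percentile of receptor genes in NPC (0.797); of the 8 NPC points right of it 2 are dorsal, 4 intermediate, 1 ventral (Olig2 at 448) and 1 of the floor plate.

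The other genes of the pathway come from lists that were drawn up with earlier results of these data known. All fold changes that follow are from the authors' deposited table. Each count of called exon genes below is to be read beside the 32.3% higher and 33.9% lower of all 12509 genes. Of 10 ventral progenitor factors, 3 reached a mean of 1 RPKM, of which Olig2 and its neighbour Olig1 (0.846 to 391 RPKM) rose and Nkx2-9, a ventral homeobox gene, fell from 3.91 RPKM to being listed at 0. Of 10 intermediate factors, 3 reached that level. Dbx2, a homeobox gene of the p0 and p1 domains and their dorsal neighbours, rose from 1.15 to 50.7 RPKM, and Prdm8 from 0.154 to 5.10. Gbx2, a hindbrain and ESC factor, fell from 12 to 2.42. Of 5 dorsal and roof plate factors at that level, 1 rose (the proneural factor Neurog2, from 0.0464 to 2.01), 2 fell (the roof plate factor Lmx1a, from 2.97 to 0.490, and Zic5, from 5.17 to 1.63), and 2 were not called. Dbx1, which marks p0 itself, was at 0.0211 and 0.318 RPKM.

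Introns gave values by replicate for the strongest of the intermediate genes. Dbx2 introns were at 0.162 and 0.0851 RPKM in ESC and 1.58 and 2.97 in NPC. As in Pax6, the 2 NPC replicates were above the 2 ESC replicates and replicate 2 held the higher value, as the median tested gene did by 0.42 on the log2 scale.

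The patterning signals were mixed. Of 5 ventral signal genes that reached a mean of 1 RPKM, Spon1 (0.151 to 50.3) and Ntn1 (9.38 to 88.5), both secreted by the floor plate, rose in the authors' deposited table, the BMP-binding Fst (14.2 to 0.557) fell, and 2 were not called. Shh itself, the ventral signal, was at 0.0707 exon RPKM in ESC and 0.462 in NPC, below the receptor percentile in both. The dorsal signal list holds BMP, Gdf, Wnt and Rspo genes by family, so a rise in it is not by itself a roof plate signal. Of 8 of its genes that reached a mean of 1 RPKM, 3 rose and 2 fell in the authors' deposited table. Bmp5 (0.0578 to 4.51), Wnt7a (0.213 to 11.6) and Wnt7b (0.508 to 8.08) were higher. Bmp4 (46.6 to 0.353), the roof plate ligand that is also made by ESC, was lower. The other 8 genes did not reach that level. Among them, Wnt1 (0.0217 to 0.169) and Wnt3a (0.0785 to 0.113) were below the receptor percentile in both cell types.

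Of 10 genes of the hedgehog response, the authors' deposited table called 6 higher and 2 lower, with a median log2 fold change of 0.78. The genes that fell were Gli1 (10.5 to 0.180), the transcription factor that is itself a target of the pathway, and Gli2 (23.3 to 3.39). Those that rose included the co-receptors Gas1 (2.03 to 84.3) and Cdon (3.45 to 31.6) the signal transducer Smo (9.51 to 44.9) and, with a smaller fold, the receptor and target Ptch1 (32.2 to 60.7). Gli1 introns were at 5.76 and 5.85 RPKM in ESC and 0.360 and 0.214 in NPC, with no overlap. Of 12 BMP response genes, the authors' deposited table called 8 higher and 1 lower, with a median of 1.45. Bmpr1b, a BMP receptor, rose from 0.492 to 31.4 RPKM, Smad5, which carries the BMP signal, from 18.4 to 162, and the target gene Id2 from 26.5 to 183, and the inhibitor Smad7 fell from 25.7 to 4.07. Over the lists of progenitor factors, signals, responses, neurons, paralogs and neighbours, the authors' deposited table called 34 of 66 genes higher and 15 lower, a median of 1.08. Of all 12509 genes at this level, 32.3% were called higher and 33.9% lower, with a median of -0.07. No rise of a pathway is read from these counts, since the lists were drawn up with earlier results known.

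**Figure D4:**
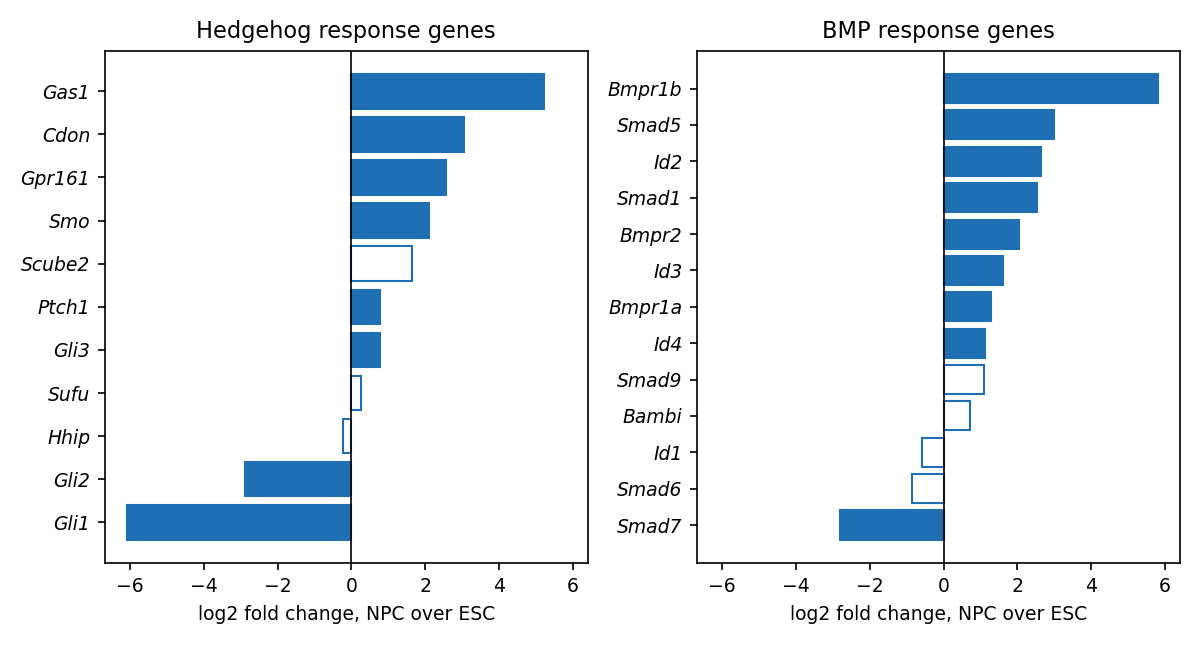
Log2 fold change of NPC over ESC from the authors' deposited table for the genes of the hedgehog response and the BMP response, genes under the level filter included; filled bars have an adjusted p under 0.05. Of the hedgehog genes Gli1 (-6.09) is lowest and Gas1 (5.21) highest, and Bmpr1b (5.80) is highest of the BMP genes.

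Several of the 10 factors are also made by other cell types, whose markers were read in the same tables. The neural label held: 10 of 10 neural progenitor genes that reached a mean of 1 RPKM were called higher in NPC, and 8 of 8 pluripotency genes lower, in the authors' deposited table. For the neural crest, which makes Pax3, Pax7 and Msx genes, the defining Sox10 was at 0.0946 exon RPKM in ESC and 0.213 in NPC, Foxd3 at 25.9 and 0.156 and Tfap2a at 0.462 and 0.450. The list's sum of 96.8 in ESC and 103 in NPC was carried in NPC by Ets1 (70.1) and Twist1 (26.8), which other cells express. For the muscle lineage, which makes Pax3 and Pax7, Myf5 was at 0 and 0.0964 and Myod1 at 0.0396 and 0.172, below the receptor percentile of NPC. For the pancreatic islet, which makes Pax6, Nkx2-2 and Nkx6-1, the summed level of 8 genes was 13.7 RPKM in ESC and 3.08 in NPC. The sum in ESC was carried by Chga (11.6 in ESC and 0.858 in NPC). Ins1 and Ins2 were at 0 in ESC and at 0.206 and 0.395 in NPC, below the receptor percentile.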

How the data were processed

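RNA was sequenced from mouse ESC and from 1 NPC clone, with 2 biological replicates of each and 2 technical libraries per replicate. The authors deposited exon values for named genes as RPKM pooled per cell type, with a log2 fold change and an adjusted p-value from their own comparison, per the file headers. Per the submitters' processing notes, the authors used DESeq2 1.10.0 and build mm9. Aligner, counter, annotation and strand use were not given in the sources used here. A further 84 exon rows had no name and were left out. The second deposited table holds 1 intron value per biological replicate, in which technical libraries were already combined. Its unit was read from the values: they are RPKM, since whole reads came back for all 18393 genes with a value within a tolerance of 0.001 reads, and for 1500 of these more than 1 intron length was possible.

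Intron values were tested with limma 3.58.1 in R 4.3.3 on log2(RPKM + 1), for genes that reached a mean of 1 RPKM, with Benjamini-Hochberg adjustment over all of them and a threshold of 0.05. Its p-values rest on how far the 2 biological replicates of each cell type lie apart, and nothing given here says how separate their cultures were. The exon filter is a mean of 1 RPKM over ESC and NPC. Promoters are RefSeq windows on GRCm38.p6, which held no entry for Pax3 and Irx5. All members were named, and from each list up to 4 called genes with the largest fold. Further genes (Dbx1, Shh, Wnt1, Wnt3a, Ptch1, Smo, Foxa2, Sox10, Tfap2a, Myf5, Myod1, Ins1 and Ins2) were named for their role after their values had been seen. The members, the lists, the domain code and the receptor level were chosen with earlier results of these data known. Some genes of these lists are not reported here and were left out of the lists' counts. Alternatives were other filters, pseudocounts and scalings, a replicate block, leaving out each replicate and limma's voom on the recovered reads.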

Additional observations from a re-analysis of the deposited data

How the results depend on the processing

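No exon fold change of the 10 factors changed sign under the alternatives run. As log2 ratios of the exon RPKM with a pseudocount of 0.1 and of 1, those near background shrank: Pax7 from 7.10 to 6.29 and 3.88, Pax3 from 4.08 to 3.25 and 1.24, and Nkx6-2 from -6.08 to -4.58 and -2.0. With the pseudocount of 1, Irx3 went from 3.52 to 2.66, Msx2 from -2.14 to -0.95 and Nkx6-1 from 0.76 to 0.11. With a mean of at least 10 RPKM in place of 1, the exon calls of the factors went from 4 to 2 higher and from 1 to 0 lower, and those of the pathway lists from 34 to 21 higher and from 15 to 7 lower, because fewer genes were tested. In introns, 1 factor (Pax6) was called higher and 0 lower. With a mean of at least 0.1 RPKM, with no filter, or with voom on recovered reads, 2 were called higher, Pax7 in addition. Voom was chosen after seeing the data. The adjusted p of Pax7 was 0.00604, 0.0196 and 0.0429 in these limma fits. Over all genes these settings called 5067 of 18070, 3763 of 18393 and 1562 of 15887 in either direction. With a mean of at least 0.1 RPKM, each NPC replicate was also left out, a choice made after seeing the data. The lone NPC sample then has no spread of its own, so only sizes are given. The intron difference of Msx2 was -0.30 with both NPC replicates, -0.48 without NPC replicate 1 and -0.13 without NPC replicate 2. For Nkx6-1 it was 0.42, 0.12 and 0.72 in the same order. The intron difference of Msx1 was not called with both NPC replicates, and it turned. It was -0.21 with both NPC replicates, -0.49 without NPC replicate 1 and 0.08 without NPC replicate 2. That of Pax3 was 0.61 with both (limma adjusted p = 0.173), 0.20 without NPC replicate 1 and 1.02 without NPC replicate 2. The size of the Pax3 intron difference thus depends on NPC replicate 1.

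The intron rise of Pax6 was called under all alternatives that kept both replicates of each cell type. It was 3.47 with a pseudocount of 0.1 and 3.94 with voom. With 1 replicate left out the lone sample is assumed to vary like the other group, so only the size is given. That size was 1.63 to 2.21. With a replicate block the rise was 1.92, and the members called higher stayed at 1. Over all genes the block gave 3777 calls against 4165. Among the 8811 genes at a mean of at least 1 RPKM, same-numbered replicates did not deviate together (r = 0.019). This does not cover lower genes. The intron 95th percentile of receptor genes was higher in replicate 1 of both cell types (0.283 against 0.0904 RPKM in ESC, 1.53 against 0.458 in NPC). Whether same-numbered replicates share a batch was not tested. The planned quasi-likelihood count model was not run, since the deposited unit is RPKM, and voom took its place. Depth limits the short introns of Irx3, Irx5, Msx1, Msx2, Nkx6-1, Nkx6-2 and Nkx2-2, where values rest on 18 reads or fewer. The exon values carry no replicate spread, and 1 clone stands for all NPC.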

Other observations

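Among factors that mark neurons of single tube domains, 3 of 14 ventral and 1 of 14 dorsal genes were above the receptor percentile in the NPC clone. Most named genes pass this level there. General neuron markers were mixed: of 7 that reached a mean of 1 RPKM, 2 rose and 4 fell in the authors' deposited table. Map2 (2.14 to 371) and Dcx (0.0639 to 33.8) were higher, and those that fell included Stmn2 (160 to 0.792) and Nefl (33.4 to 0.795). Of 14 ventral neuron genes with exon values, 5 reached a mean of 1 RPKM, of which 2 were higher and 1 lower in NPC in the authors' deposited table. En1, which marks V1 interneurons and also the midbrain and anterior hindbrain, rose from 1.24 to 15.8 RPKM, with introns at 0.235 and 0.156 RPKM in ESC and 1.76 and 2.42 in NPC, and Isl2 from 0.127 to 2.19. The gene that fell was Foxd3 (25.9 to 0.156), which is also a pluripotency and neural crest factor. Of 3 dorsal neuron genes at that level, the authors' deposited table called Lhx2 higher (0.446 to 14.1) and Pou4f1 (9.89 to 0.488) and Pou4f2 (52.3 to 0.465) lower. Lhx2 is also on the forebrain marker list. Of 3 genes of that list at this level, Lhx2 and Emx2 (0.217 to 10.9) rose and 1 was not called.

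Among paralogs of the 10 factors, Pax9, a gene of the pharyngeal pouches and sclerotome, rose from 0.0818 to 7.88 exon RPKM in NPC in the authors' deposited table, a level between those of Irx3 and Pax3. Irx2 was at 2.58 and 7.16 RPKM, with introns at 1.45 and 0.782 RPKM in ESC and 3.32 and 4.20 in NPC. Next to Pax6, Rcn1 was at 118 and 499 RPKM in ESC and NPC and Elp4 at 9.26 and 21.4. Next to Irx3, Fto was at 10.9 and 18.7.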
